A study of Mus musculus with 4 samples.

Results

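The genes described here encode collagen chains. They were taken as all genes of the deposited table whose single gene symbol consists of Col, a number, the letter a and a number. The rule gave 44 genes of 22180 measured with a symbol of their own. They were grouped into 11 fibrillar chains, 6 basement membrane chains, 9 FACIT chains (which attach to the surface of fibrils), 6 beaded filament chains, 4 transmembrane chains, 3 short-chain network chains, 2 multiplexins, the anchoring fibril chain Col7a1 and 2 others. The table held 47 rows for these genes, with 3 chains on more than 1 row, and the brightest row of each gene was used.

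Total RNA of mouse fibroblasts had been hybridised to Affymetrix Mouse Gene 2.0 ST arrays, 1 array per RNA sample, in a group labelled Zip13KO and a wild-type group (WT), each with 2 biological replicates. Zip13KO names the loss of Zip13 (Zip13-/- in the study's design), the zinc transporter of the secretory pathway that is encoded by Slc39a13. The body site of the fibroblasts, the age and strain background of the mice, the passage of the cells and the way the allele was made were not stated in the labels. Nothing in the labels says whether replicates came from separate animals, so the spread between these samples may be technical. The limma p-values reflect only that spread, mostly as pooled over genes (2 residual and 15.1 prior degrees of freedom).

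A collagen molecule is a triple helix of chains, made in the endoplasmic reticulum, hydroxylated and glycosylated there, carried through the Golgi and trimmed and crosslinked outside the cell. Fibroblasts are the main source of the fibrillar collagens of connective tissue, and they also make the network collagen IV and the beaded collagen VI that lie around cells. In people and in mice, loss of ZIP13 is known for a connective tissue disease of the Ehlers-Danlos kind.

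Slc39a13 read 474 and 506 on the arrays labelled Zip13KO, against 491 and 461 on the WT arrays, a difference of 0.04 log2 units (limma adjusted p = 0.820). Where its probes lie relative to the altered sequence is unknown. The labels are therefore left unchecked by it, and directions below follow them as given. Array medians lay between 94.5 and 96.1 in the deposited intensity, which is on a linear scale. Of 10 fibroblast markers, Vim, Thy1, Pdpn and S100a4 were among 6 in the top 20% of all genes, whereas Lum and Fap lay under the array median. Fibroblast markers moved in both directions, with Pdgfra (1.04) and Fbln1 (0.34) higher and Pdpn (-1.68), Pdgfrb (-0.92), S100a4 (-0.40) and Vim (-0.17) lower on the arrays labelled Zip13KO, in log2 units.

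Several collagen chains fell on the arrays labelled Zip13KO, and none passed the test as higher. Differences are given as Zip13KO minus WT on the log2 scale, from a limma fit over all 22180 genes with Benjamini-Hochberg adjustment, and a gene rose or fell where the adjusted p was under 0.05. In that fit 12 of 44 chains fell and 0 rose, where 10.1% of all genes fell and 7% rose. At an unadjusted p under 0.05, 14 chains were lower and 0 higher, against 3273 lower and 2473 higher of all 22180 genes. The median difference was -0.07 over the 44 chains and -0.00341 over all genes, so the median chain moved little while 12 chains fell by up to 2.94-fold. Of those 12, 3 fell at least 2-fold (Col4a1, Col12a1 and Col4a2), 5 fell by 0.5 to 1 log2 units and 4 by less. Both Zip13KO arrays lay below both WT arrays for 24 chains and above them for 5, with shares of 27.3% and 24.1% over all genes. In RNA from a whole culture, fewer cells of a type and less RNA per cell cannot be told apart.

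**Figure D1:**
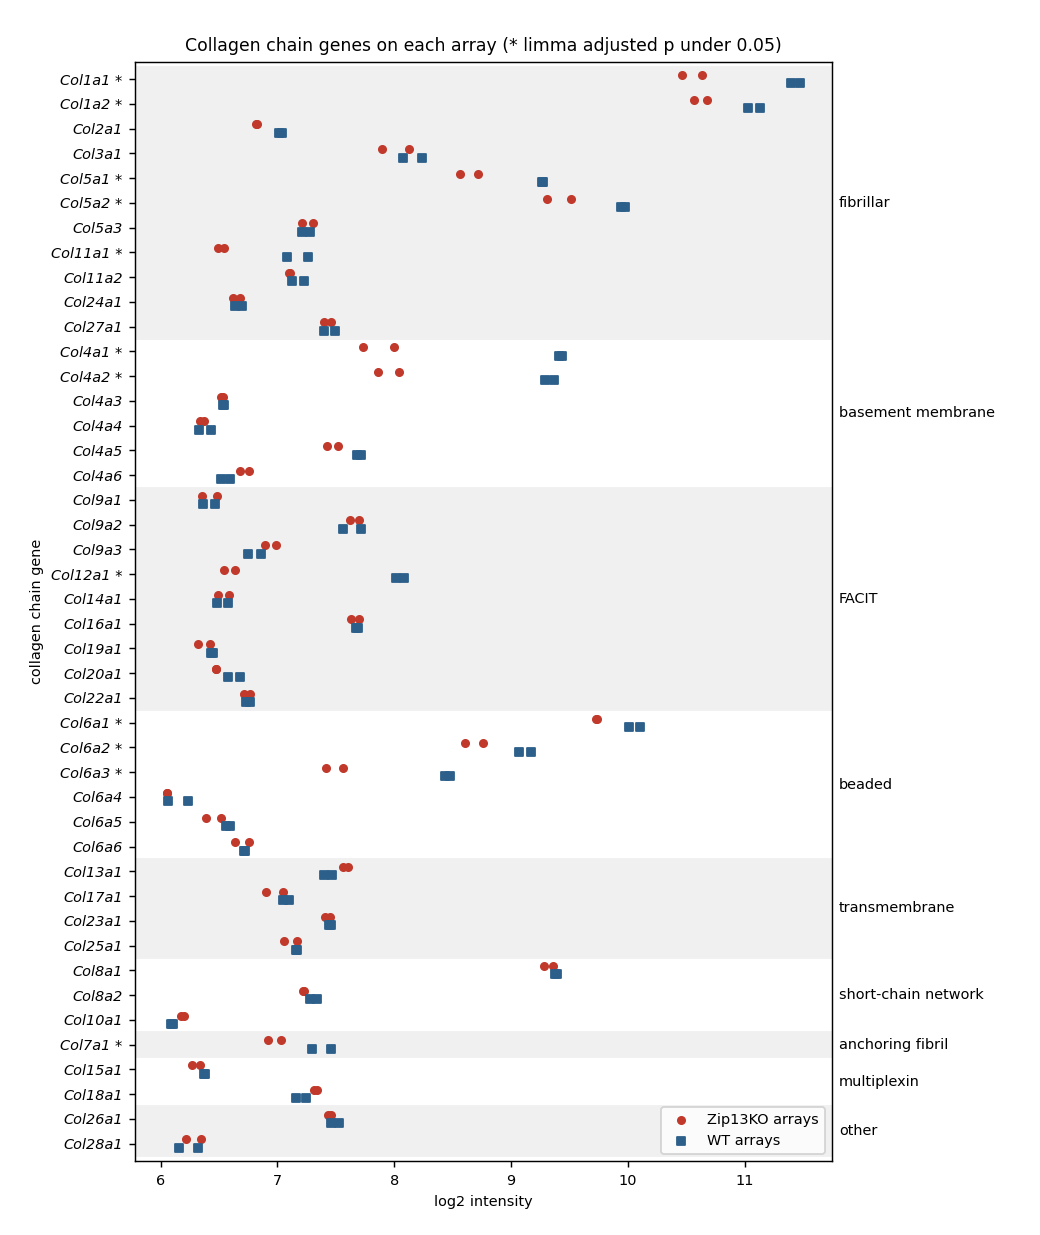
Log2 intensity (horizontal axis) of the 44 collagen chain genes (rows, by class) on the 2 Zip13KO arrays (circles, upper) and the 2 WT arrays (squares, lower), with a star where the limma adjusted p was under 0.05. Each of the 12 starred chains has both Zip13KO arrays below both WT arrays, and most other chains lie between 6 and 8 in both groups.

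Among basement membrane chains, the pair that forms the common collagen IV network fell strongly and the other 4 did not pass the test. Col4a1 encodes the more abundant chain of each molecule of this network, which it forms with the Col4a2 chain. Col4a1 read 213 and 255 on the Zip13KO arrays, against 692 and 681 on the WT arrays. It fell by 1.56 log2 units (SE 0.09), which is 2.94-fold (adjusted p = 2.66e-10). Its partner Col4a2 read 233 and 263 on the Zip13KO arrays, against 660 and 624 on the WT arrays. It fell by 1.38 (SE 0.08, adjusted p = 5.96e-10). Both Zip13KO arrays lay far under both WT arrays for each chain, and array 1 was the lower of the Zip13KO pair in both.

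Col4a1 and Col4a2 lie head to head on chromosome 8 and share their promoter region, and they fell by similar amounts, so the sequence around their starts is shown. The windows run from 250 bases before to 50 bases after each start, from RefSeq on GRCm38.p6, which is Col4a1 at chr8:11312777-11313076 on the minus strand and Col4a2 at chr8:11312555-11312854 on the plus strand. The genes extend in opposite directions, and the starts used here, 1 annotated start per gene, lie just past each other. By these starts 22 bases are transcribed from both strands, and 78 bases belong to both windows. The RefSeq range of Col4a1 reaches further, to chr8:11312889, so another start would move its window and the distances below. Capitals mark CCAAT, the box bound by NF-Y, and GGGCGG, the GC box bound by Sp1 and related factors, each searched on both strands.
Col4a1: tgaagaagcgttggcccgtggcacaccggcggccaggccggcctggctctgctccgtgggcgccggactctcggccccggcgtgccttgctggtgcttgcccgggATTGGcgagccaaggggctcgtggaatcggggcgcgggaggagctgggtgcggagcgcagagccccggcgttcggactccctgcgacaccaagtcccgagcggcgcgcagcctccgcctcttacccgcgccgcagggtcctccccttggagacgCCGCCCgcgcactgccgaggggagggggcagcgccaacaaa
Col4a2: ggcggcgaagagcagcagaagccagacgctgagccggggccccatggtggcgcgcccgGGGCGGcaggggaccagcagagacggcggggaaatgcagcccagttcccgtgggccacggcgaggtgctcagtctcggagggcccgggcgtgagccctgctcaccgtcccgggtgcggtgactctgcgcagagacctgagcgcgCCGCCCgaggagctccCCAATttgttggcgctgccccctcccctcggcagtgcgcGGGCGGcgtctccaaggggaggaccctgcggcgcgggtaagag
The Col4a1 window held 1 CCAAT match, 145 bases before the start on the opposite strand, and 1 GGGCGG match. The Col4a2 window held 1 CCAAT match, 32 bases before the start, and 3 GGGCGG matches. The Col4a1 GGGCGG match is 1 of those 3, the same site at chr8:11312812-11312817 read from both strands, so the windows hold 3 such sites in all. The windows were rich in G and C, at 74.0% and 73.7%, against a median of 52.7% over the promoters of 27025 genes.

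The collagen IV chains of specialised membranes gave small differences. Col4a5, a chain of kidney and skin basement membranes, read 172 and 183 on the Zip13KO arrays, against 210 and 205 on the WT arrays, a difference of -0.22 (adjusted p = 0.0638). It passed after a filter on low intensities (adjusted p = 0.0417). It also passed with crossed replicate numbers as a block (0.01705), a pairing absent from the labels and added after the data were seen. With the labelled replicate numbers as a block it did not pass (adjusted p = 0.111). Col4a6, which lies head to head with Col4a5 on the X chromosome, read 108 and 102 on the Zip13KO arrays, against 96.4 and 91.8 on the WT arrays, a difference of 0.16 (adjusted p = 0.232). The groups did not overlap for either chain, in opposite directions. The other 2 chains of the class lay between 80.4 and 93.1 on all arrays, under the array medians, with differences of -0.03 and -0.01.

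Of the 11 fibrillar chains, which build the banded fibrils of connective tissue, 5 fell, with a class median of -0.20. Over all genes 10.1% fell. Col1a1 and Col1a2 encode the chains of type I collagen, the main collagen of skin, bone and tendon. Col1a1 read 1414 and 1585 on the Zip13KO arrays, against 2844 and 2692 on the WT arrays. It fell by 0.89 log2 units (SE 0.07), to 54.1% of the WT level (adjusted p = 2.79e-08). Col1a2 read 1518 and 1635 on the Zip13KO arrays, against 2235 and 2087 on the WT arrays. It fell by 0.46 (SE 0.07), to 72.9% of the WT level (adjusted p = 6.76e-05). Both type I chains had separate groups, and the fall of Col1a1 was the larger.

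The chains of type V collagen, which takes part in starting type I fibrils, both fell. Col5a1 read 378 and 421 on the Zip13KO arrays, against 618 and 614 on the WT arrays, and fell by 0.63 (SE 0.08, adjusted p = 8.60e-06). As the mean of its 2 rows, of which the dimmer had a WT mean log2 of 6.80, near the array median, the difference was -0.38 (adjusted p = 0.00246). Col5a2 read 633 and 730 on the Zip13KO arrays, against 980 and 1005 on the WT arrays, and fell by 0.55 (SE 0.08, adjusted p = 4.46e-05). Col11a1, a chain of the cartilage collagen XI that can also assemble with type V chains, read 93.2 and 89.99 on the Zip13KO arrays, against 135 and 154 on the WT arrays. It fell by 0.65 (SE 0.09, adjusted p = 2.04e-05), to near the array median.

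Col3a1 encodes type III collagen, which forms mixed fibrils with type I in skin and vessels, and it did not pass the test. It read 238 and 279 on the Zip13KO arrays, against 270 and 301 on the WT arrays, a difference of -0.14 (95% interval -0.33 to 0.05, adjusted p = 0.363). Its groups overlapped. Leaving out 1 array moved the difference between -0.03 (without Zip13KO replicate 1) and -0.26 (without Zip13KO replicate 2, adjusted p = 0.0672), with -0.22 without WT replicate 1 and -0.06 without WT replicate 2. Col2a1, the main cartilage collagen, named after its values were seen for its unadjusted p of 0.0202, read 113 and 113 on the Zip13KO arrays, against 129 and 132 on the WT arrays, a difference of -0.20 (adjusted p = 0.0983). The other 4 fibrillar chains lay between 98.3 and 180 on all arrays, with differences from -0.08 to 0.01.

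The promoters of Col1a2, the fibrillar chain of the top 20% of genes that fell least, and of Col3a1, added after its values were seen, are set beside each other because these genes are often described as made together in fibroblasts. The Col1a2 window is chr6:4505368-4505667 and the Col3a1 window is chr1:45311288-45311587, both on the plus strand of GRCm38.p6 from RefSeq. Capitals mark the same motifs and TATAAA, the TATA box, on both strands.
Col1a2: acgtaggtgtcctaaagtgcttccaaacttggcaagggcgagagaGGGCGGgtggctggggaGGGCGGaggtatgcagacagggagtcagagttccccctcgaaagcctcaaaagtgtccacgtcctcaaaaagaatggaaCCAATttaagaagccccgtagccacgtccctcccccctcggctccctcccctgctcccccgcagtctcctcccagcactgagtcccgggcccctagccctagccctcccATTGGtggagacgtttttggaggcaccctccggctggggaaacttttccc
Col3a1: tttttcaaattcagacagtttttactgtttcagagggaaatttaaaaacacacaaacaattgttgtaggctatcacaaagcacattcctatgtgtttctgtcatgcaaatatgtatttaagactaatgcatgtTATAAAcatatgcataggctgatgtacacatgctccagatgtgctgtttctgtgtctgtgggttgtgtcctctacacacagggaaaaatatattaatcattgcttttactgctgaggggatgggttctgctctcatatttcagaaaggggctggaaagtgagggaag
The Col1a2 window held 2 CCAAT matches, 1 of them 109 bases before the start and 1 on the opposite strand at the start itself. It also held 2 GGGCGG matches, 205 and 188 bases before the start. The Col3a1 window held neither and 1 TATAAA match, 117 bases before the start. Their G and C contents were 61.0% and 37.7%. Each of these windows also rests on 1 annotated start, and another start would move it and the distances. Within each of the 4 printed windows no match overlapped another. Promoters of 35 of the 44 chains were matched by symbol, and 12 of these held CCAAT, 22 GGGCGG and 5 TATAAA, or 5, 7 and 0 of the 9 that belong to chains that fell. Over 27025 promoters of the same length the shares were 37.9%, 35.9% and 14.2%. The median G and C content was 60% over the 35 collagen promoters, against 52.7% over all promoters. Col1a1, Col5a2 and Col12a1, which also fell, had no matched promoter, so Col1a1, the fibrillar chain that fell most, is not shown. A match describes these letters in this window and says nothing of binding.

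The beaded filament class split by gene, with 3 chains lower and 3 not past the test, where 10.1% of all genes fell. Col6a1, Col6a2 and Col6a3 encode the chains of the common collagen VI, a filament that surrounds fibroblasts and muscle fibres. Col6a3 read 170 and 189 on the Zip13KO arrays, against 345 and 356 on the WT arrays, and fell by 0.97 (SE 0.08, adjusted p = 7.58e-08). Col6a2 read 390 and 433 on the Zip13KO arrays, against 536 and 575 on the WT arrays, and fell by 0.43 (SE 0.08, adjusted p = 5.67e-04). Col6a1 read 845 and 853 on the Zip13KO arrays, against 1028 and 1100 on the WT arrays, and fell by 0.33 (SE 0.07, adjusted p = 0.00234). Col6a1 did not pass as the mean of its 2 rows, where the difference was -0.21 (adjusted p = 0.0632). The dimmer row had a WT mean log2 of 7.36, against 10.1 for the brighter. All 3 had separate groups, and Col6a3 fell most. The other 3 beaded chains lay between 66.4 and 108, with differences from -0.13 to -0.02.

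Among FACIT chains 1 of 9 fell (11.1%), near the 10.1% of all genes that fell. Col12a1 encodes the chain of collagen XII, which lies along type I fibrils in tendon, ligament and skin. It read 93.0 and 99.7 on the Zip13KO arrays, against 270 and 258 on the WT arrays. It fell by 1.46 (SE 0.08), which is 2.74-fold (adjusted p = 3.10e-10). Its Zip13KO values lay near the array median, and no measure of background was used here, so the size of this fall may be understated. Col16a1, the brightest of the other FACIT chains in WT, read 207 and 198 on the Zip13KO arrays, against 207 and 203 on the WT arrays, with overlapping groups. The other 7 lay between 79.7 and 210, with differences from -0.15 to 0.14.

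Of the remaining 12 chains only Col7a1 fell, where 10.1% of all genes fell. Col7a1 encodes the anchoring fibril that ties skin basement membrane to the dermis. It read 131 and 121 on the Zip13KO arrays, against 176 and 157 on the WT arrays, and fell by 0.40 (SE 0.09, adjusted p = 0.00262). Col7a1 did not pass in a fit adjusted over all 41345 rows (adjusted p = 0.0672). Col8a1, a short-chain network collagen of vessel walls and the cornea, was the only chain in the top 20% of genes by mean level that did not fall. It read 622 and 655 on the Zip13KO arrays, against 663 and 671 on the WT arrays, a difference of -0.06 (95% interval -0.21 to 0.09, adjusted p = 0.674), with separate groups. Col8a2, its partner in the cornea, read 150 and 149 on the Zip13KO arrays, against 161 and 155 on the WT arrays, a difference of -0.08 (adjusted p = 0.607).

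None of the 4 transmembrane chains, which span the cell membrane, and of the 2 multiplexins passed in limma, nor did any at an unadjusted p under 0.05. Since only 10.1% of all genes fell and 7% rose, counts this small say little about these classes. Col13a1, a transmembrane chain at cell contacts, read 195 and 189 on the Zip13KO arrays, against 177 and 169 on the WT arrays, a difference of 0.15 (adjusted p = 0.245). Col23a1, another transmembrane chain, read 174 and 169 on the Zip13KO arrays, against 174 and 176 on the WT arrays, a difference of -0.03 (adjusted p = 0.908). Col18a1, the basement membrane multiplexin from which endostatin is cut, read 162 and 159 on the Zip13KO arrays, against 151 and 143 on the WT arrays, a difference of 0.13 (adjusted p = 0.375). Over the 32 chains that did not pass, differences ran from -0.22 to 0.16 with 22 below 0, and their 95% intervals lay within -0.39 and 0.33. Of all 18394 genes that did not pass, 49.4% lay below 0. Of the 44 chains, 8 lay under the array median on all 4 arrays, as did 35.2% of all genes. None of the 8 fell.

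**Figure D2:**
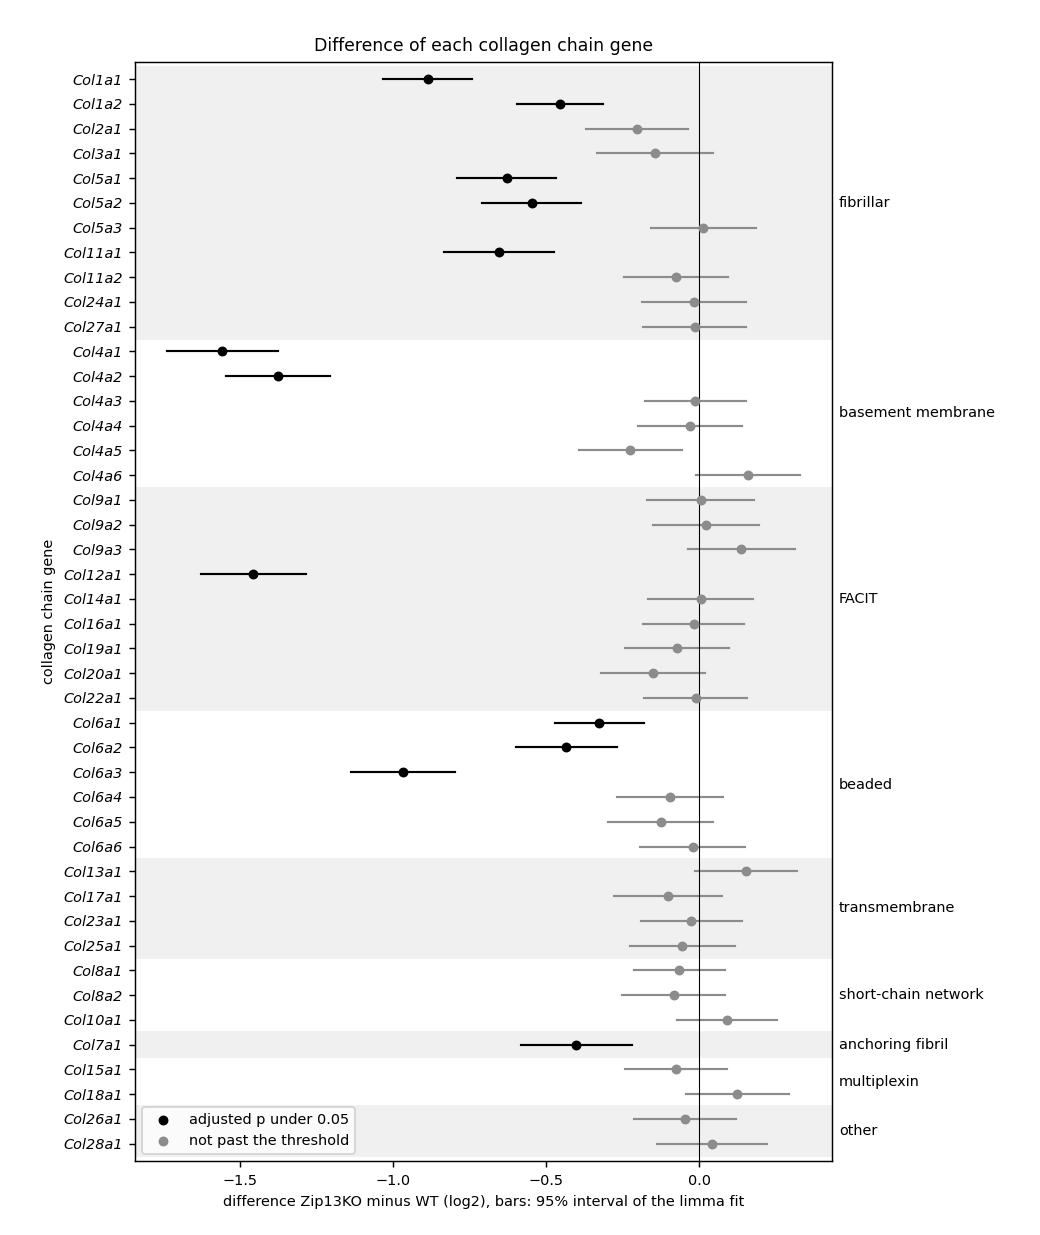
Difference Zip13KO minus WT in log2 units (horizontal axis) for the 44 collagen chain genes (rows, by class), with the 95% interval of the limma fit as bars. Black points are the 12 chains with adjusted p under 0.05, from -1.56 for Col4a1 to -0.33 for Col6a1, and grey points are the 32 others, which run from -0.22 to 0.16.

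Chains that assemble into the same molecule differed in how far their rows fell. For 6 pairs of partner chains the log2 ratio within each array was taken and set relative to the WT mean, which removes what a shared array effect adds to both chains. Col1a1 over Col1a2 stood at -0.46 and -0.40 on the Zip13KO arrays, against -0.01 and 0.01 on the WT arrays. The change was -0.43 with the brighter Col1a2 row and -0.31 with the dimmer one. Col6a3 over Col6a1 stood at -0.71 and -0.57 on the Zip13KO arrays, against 0.03 and -0.03 on the WT arrays. Col6a3 over Col6a2 stood at -0.53 and -0.53 on the Zip13KO arrays, against 0.03 and -0.03 on the WT arrays. In these 3 ratios both Zip13KO arrays lay far below both WT arrays. Col4a1 over Col4a2 changed by -0.18, Col5a1 over Col5a2 by -0.08 and Col6a1 over Col6a2 by 0.11. The last 2 depend on the row: with the dimmer Col5a1 row the change of Col5a1 over Col5a2 turned to 0.41, with the mean of its rows to 0.16, and with the dimmer Col6a1 row that of Col6a1 over Col6a2 was 0.35. The dimmer Col5a1 row had a mean log2 of 6.66 in Zip13KO and 6.80 in WT, near the WT array median of 6.57. The dimmer Col6a1 row had 7.27 in Zip13KO and 7.36 in WT. The part of these low levels in the moved ratios was not tested. With the brightest rows the groups were separate in all 6 ratios, but the exact permutation test (two-sided) gave p = 0.333 for each, the smallest value that 2 arrays per group allow. A ratio shows unequal change of the rows and not that either chain stayed as it was.

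**Figure D3:**
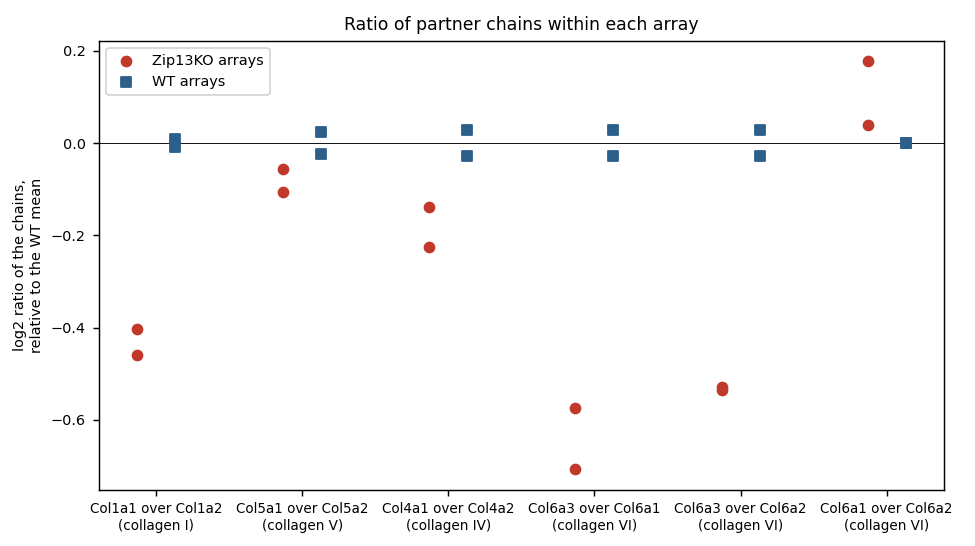
Log2 ratio of partner chains within each array relative to the mean of the WT arrays (vertical axis) for 6 pairs (horizontal axis), with Zip13KO arrays as circles on the left and WT arrays as squares on the right of each pair. Col1a1 over Col1a2 and Col6a3 over its partners lie at -0.40 or lower in Zip13KO, and the other 3 pairs between -0.22 and 0.18, all with the brightest row of each gene. Col5a1 over Col5a2 turns to 0.41 with the dimmer Col5a1 row, which lies near the array median.

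The chains that fell were mostly those with bright rows in WT. A row's brightness also depends on its probes, so levels serve here only to sort genes. Rows near the array median have little room to fall, and 1.73% of all genes with a WT mean under 7 fell. The part of this limit in the link of level to fall was not tested. With a WT mean of 8 or more on the log2 scale, 10 of 12 chains fell, and the other 2 were Col3a1 and Col8a1. Of all 6680 genes at that level, 24% fell and 12.3% rose. Under 8, 2 of 32 chains fell, Col11a1 and Col7a1, against 4.06% of 15500 genes that fell and 4.7% that rose. The median difference was -0.59 over the 12 bright chains and -0.04 over all genes at that level, and -0.02 over the 32 dim chains and 0.00390 over all genes there.

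Level and difference share the WT arrays, so they were also taken from different ones. With the level from WT array 1 and the difference from WT array 2, the 9 chains at 9 or more had a median of -0.56, against -0.04 over 3776 genes. With the arrays exchanged the medians were -0.53 and -0.08. Across the 44 chains Pearson's r between level and difference was -0.62 and -0.59 in the 2 arrangements (Spearman's rho -0.62 and -0.51), against -0.12 and -0.18 across all genes. These are descriptions over genes measured on the same 4 arrays, which are not independent replicates.

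**Figure D4:**
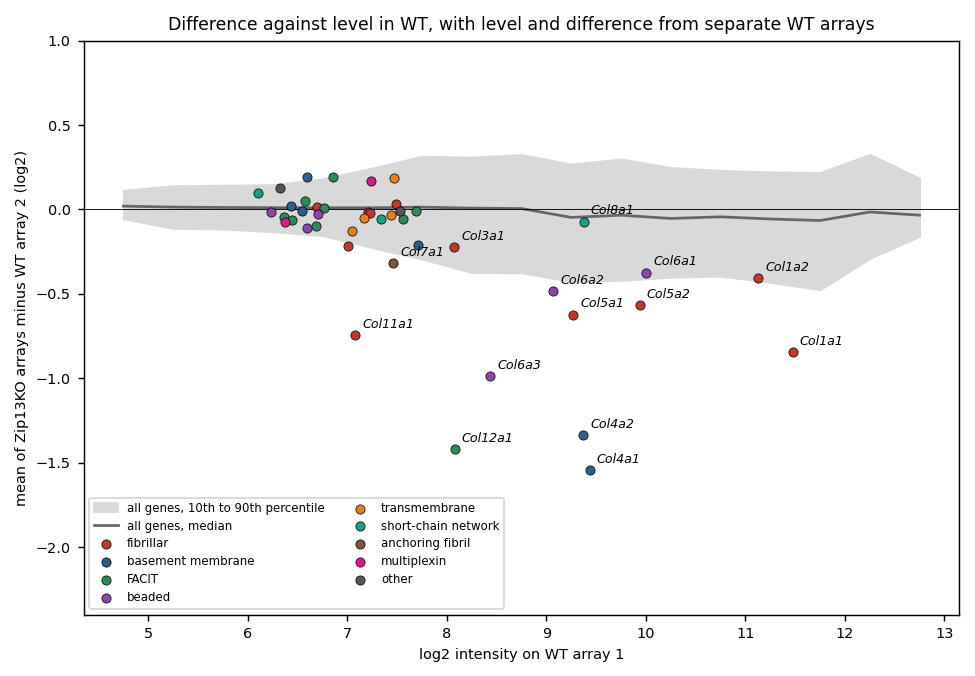
Mean of the Zip13KO arrays minus WT array 2 in log2 units (vertical axis) against the log2 intensity on WT array 1 (horizontal axis) for the 44 chains, coloured by class, with the median (line) and the 10th to 90th percentile (band) of all genes in steps of 0.5. The 9 chains at 9 or more have a median of -0.56, and Col8a1 lies near 0 among them.

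Most of the listed genes that fold, modify, trim and crosslink collagen were lower too, in a list drawn up with earlier results of these data known. Of 27 measured genes for folding, hydroxylation, processing and crosslinking, 18 fell and 2 rose, with a list median of -0.32. Over all genes 10.1% fell and 7% rose, and with a WT mean of 9 or more, where the median of this list lies, 27.8% fell and 11.4% rose. Tll1, a protease that removes the C-terminal propeptide, fell by 2.13, lysyl oxidase (Lox), which starts crosslinks, fell by 1.36 and the lysyl hydroxylase Plod2 fell by 1.16. Of the other listed genes of propeptide removal, Bmp1 (-0.03), Tll2 (-0.04), Adamts3 (-0.16) and Pcolce (0.01) did not pass. Pcolce2 (-1.14) and Adamts14 (-0.25) fell. The 2 that rose were P3h3 (0.49) and P3h2 (0.39), both of the prolyl 3-hydroxylase family. Serpinh1, the collagen chaperone HSP47, was named after its values were seen. It read 2025 and 2134 on the Zip13KO arrays, against 2897 and 2737 on the WT arrays, and fell by 0.44 (adjusted p = 5.39e-05).

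Of 13 genes for export of large cargo from the endoplasmic reticulum, 6 fell and 0 rose in limma (7 lower and 0 higher at an unadjusted p under 0.05), where 10.1% of all genes and 24% of genes with a WT mean of 8 or more fell. The COPII coat subunits Sec23a (-0.92) and Sec24d (-0.46) and the SNARE regulator Scfd1 (-0.51) changed most. Of 9 collagen receptors 4 fell and 0 rose in limma (4 and 0 at an unadjusted p under 0.05), with the integrin subunits Itgb1 (-0.82) and Itga1 (-0.38) and the collagen-binding kinase Ddr1 (-0.52) leading, where 10.1% of all genes fell. The other such kinase of the list, the brighter Ddr2, did not pass (0.11, limma adjusted p = 0.410). Of 8 collagen-cleaving proteases 3 fell and 0 rose in limma (3 and 1 at an unadjusted p under 0.05), namely Mmp2 (-2.68), Ctsk (-0.68) and Mmp14 (-0.30), against the same 10.1%. At an unadjusted p under 0.05, 3273 of all 22180 genes were lower and 2473 higher.

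**Figure D5:**
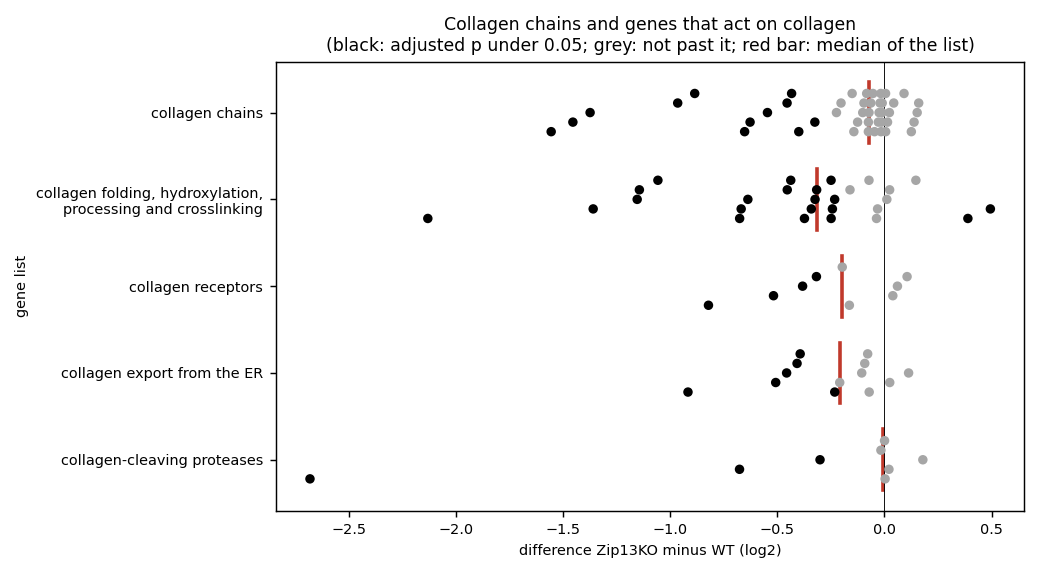
Difference Zip13KO minus WT in log2 units (horizontal axis) of the 44 collagen chains and of 4 lists of genes that act on collagen (rows), 1 point per gene, black where the limma adjusted p was under 0.05, with the list median as a red bar. The folding and crosslinking list has 18 of 27 genes lower and a median of -0.32, against -0.07 for the chains.

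Contractile markers moved in the same arrays as the collagen chains. Of 9 markers of myofibroblasts and smooth muscle, 5 fell, where 10.1% of all genes and 27.8% of genes with a WT mean of 9 or more fell. The summed intensity of the list was 3866 to 3897 on the Zip13KO arrays, against 14558 to 15194 on the WT arrays. Myl9 (-3.99), Actg2 (-2.81) and Acta2 (-2.08) fell most, while Myh11 and Smtn differed by 0.01 and -0.07 without passing. Desmin (Des), the dimmest of the list at a mean log2 of 6.36, lay higher in Zip13KO without passing. It read 90.3 and 87.6 on the Zip13KO arrays, against 77.1 and 74.7 on the WT arrays, a difference of 0.23 (limma adjusted p = 0.0571). Summed endothelial markers were 517 to 518 in Zip13KO and 493 to 496 in WT, and epithelial ones 606 to 630 in Zip13KO and 602 to 651 in WT. None of the 6 endothelial and 5 epithelial markers passed, and the endothelial Kdr, Tek, Tie1 and Emcn lay under the array medians on all arrays. Cartilage markers summed to 1762 to 1862 in Zip13KO and 1499 to 1535 in WT, of which Sox9, the only one past the test, rose by 0.35 while Acan stayed under the array median. The summed leukocyte, Schwann and adipocyte lists overlapped between the groups, although 2 of 5 leukocyte markers fell and 1 rose. Of 4 mesothelial markers Msln alone passed and rose by 2.97, with a summed level of 1746 to 1793 in Zip13KO and 570 to 578 in WT. The part of these markers in the collagen differences was not tested.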

How the data were processed

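RNA of 4 samples, 2 per genotype, was measured on 1 array each. Values were deposited as intensity, linear and from 21.8 to 10826. The submitters' processing notes name Affymetrix Expression Console and RMA but no version, and no build or annotation is stated. Since RMA adjusts arrays to each other, a shift common to most genes is not visible. Log2 was taken with no pseudocount and no filter.

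Of 41345 rows, 23521 carried a single symbol in the platform annotation and gave 22180 genes. A row that names Col6a1 beside other genes was left out. The fit was made in R 4.3.3 with limma 3.58.1 (lmFit, then eBayes with an intensity trend). P-values were two-sided and adjusted by Benjamini-Hochberg across genes. The code was tested on simulated data. The number of arrays limits the precision.

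The members, lists and tests were chosen with earlier results of these data known. Values on every array are given for all chains past the threshold, for the unpassed chain of the top 20% and for examples among the others, not in every class. The rest are given by range. Alternatives covered a replicate block, a filter on low intensities, a further quantile normalization, median centring, other variance models, the mean of a gene's rows, all rows in the fit, and leaving out each array. Crossed replicate numbers, and other rows in the ratios of chains, were added after the data were seen. Promoter sequences are from RefSeq (GRCm38.p6).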

Additional observations from a re-analysis of the deposited data

How the results depend on the processing

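The count of chains that fell was 11 to 13 under the alternatives run, and no chain rose under any of them. All 12 fell with the replicate number as a block (12 chains; over all genes 3364 genes were past the threshold). Col6a1 did not pass as the mean of its rows (-0.21, adjusted p = 0.0632), and Col7a1 did not pass with all rows in the fit (-0.40, adjusted p = 0.0672). Col4a5 passed after a filter on low intensities (adjusted p = 0.0417). It also passed with crossed replicate numbers (0.01705), a pairing absent from the labels, but not with the labelled numbers as a block (0.111). With all rows in the fit 1806 of the genes passed (669 higher and 1137 lower), against 3786 in the fit over genes (1552 higher and 2234 lower). The numbers did not pair the samples: same-numbered arrays deviated with r = -0.16 over genes. Class medians moved after a filter on low intensities, which leaves out dim chains, to -0.80 for basement membrane, -0.38 for beaded and 0.13 for multiplexins, and a further quantile normalization put the short-chain median at -0.0204 (the cause was not tested). Leaving out 1 array gave medians of -0.16 to -0.10 for basement membrane, -0.26 to -0.19 for fibrillar and -0.0806 to -0.0266 for short-chain network chains. Col16a1 ranged from -0.0498 to 0.0153 and Slc39a13 from -0.00554 to 0.0898 when 1 array was left out, changing sign without passing. Leaving out 1 array moved Col3a1 between -0.26 and -0.03. The change of Col5a1 over Col5a2 turned to 0.4059 with the dimmer Col5a1 row and to 0.1624 with the mean of its rows, alternatives chosen after the data were seen. That dimmer row lay near the array median, at a WT mean log2 of 6.80. Of the chains, 8 lay under the array median on all arrays.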

Other observations

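Proteins with a collagen domain but another name were described from a list of 30 genes drawn up after the data had been seen, of which 28 were measured. Of these, 3 fell and 1 rose, where 10.1% of all genes fell and 7% rose, so the count of lower genes is near that of genes in general. The median difference was -0.000129. The scavenger receptor Colec12 read 512 and 537 on the Zip13KO arrays, against 1203 and 1182 on the WT arrays, and fell by 1.19 log2 units (limma adjusted p = 6.14e-10). Scara3, another scavenger receptor, fell by 0.65 and C1qtnf12 by 0.38, while Eda, the ectodysplasin ligand, rose by 0.32.

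Among 9 transcription factors described for type I collagen genes, listed after the data had been seen, 3 fell and 1 rose. All had a WT mean of 8 or more on the log2 scale, where 24% of genes fell and 12.3% rose. Creb3l1, a membrane-bound factor that acts on Col1a1 in mouse bone, read 192 and 182 on the Zip13KO arrays, against 585 and 631 on the WT arrays, and fell by 1.70. Fli1, an ETS factor, fell by 0.58, while Sp1 (-0.03) and Sp3 (-0.12) did not pass. Whether each factor raises or lowers collagen RNA in these cells was not tested. The subunits of NF-Y, the CCAAT-binding factor, went apart, with Nfya higher by 0.30 and Nfyc lower by 0.24.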
